A study of Mus musculus with 4 samples.

Results

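This account covers 9 genes for amino acid transporters of the stress response, read in bulk RNA-seq of cultured mouse tissue from the AGM (aorta, gonad and mesonephros), the embryonic region where blood stem cells first form. The 9 genes, Slc7a11, Slc7a5, Slc3a2, Slc7a3, Slc7a1, Slc1a4, Slc1a5, Slc38a2 and Slc6a9, were taken by symbol. All 9 were found among the 49997 genes of the files, and all 9 passed the filter on low counts, as did 19837 genes in all. The untreated group was 2 libraries of AGM explants from C57BL/6J embryos, cultured for 48 hours at the gas-liquid interface with hydrocortisone in the medium. The CCCP group was 2 libraries of the same kind of explant kept for those 48 hours with 5 µM CCCP, a compound that carries protons across the inner mitochondrial membrane and so dissipates its potential. The culture and the hydrocortisone are shared by both groups. The study addressed how mitochondrial activity bears on the maturation of embryonic blood stem cells. The labels name stages E10.5 and E11.5 in one place and E10.5 alone in another, and do not say how many embryos went into a library.

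Amino acids cross the plasma membrane on carriers of several families. When mitochondria or the endoplasmic reticulum are disturbed, or when amino acids run short, kinases phosphorylate the translation factor eIF2 alpha, and translation of the transcription factor Atf4 goes up. Atf4 is known to bind sites called CARE (C/EBP-ATF response elements) in genes for amino acid synthesis and for the transporters described here, so that their messages are commonly read as markers of this integrated stress response.

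The promoter letters show which members carry such a site next to an annotated start. RefSeq promoter windows (mm10, the same build as GRCm38.p6 in the table) run from 250 bases before to 50 bases after a start. By symbol 6 of the 9 members matched, with 9 windows, and Slc7a5, Slc7a3 and Slc1a5 did not. The letters TGATGNAA, searched on both strands, stood for CARE. Slc7a11 and Slc1a4 held them, and the windows of Slc3a2, Slc7a1, Slc38a2 and Slc6a9 did not. The stretch of Slc7a11 is chr3:50443614-50443713 on the minus strand, from -100 to -1. That of Slc1a4 is chr11:20332710-20332809 on the minus strand, from -96 to 4, and that of the most upstream Slc6a9 window is chr4:117835158-117835257 on the plus strand, from -100 to -1. Slc7a11 and Slc1a4 are shown for their matches, and Slc6a9 because it had the largest group difference of the 9 without a match. Capitals mark the CARE letters.
Slc7a11: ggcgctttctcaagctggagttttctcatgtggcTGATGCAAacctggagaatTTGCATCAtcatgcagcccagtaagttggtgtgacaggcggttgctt
Slc1a4: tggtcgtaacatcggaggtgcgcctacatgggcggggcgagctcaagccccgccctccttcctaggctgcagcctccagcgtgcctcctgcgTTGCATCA
Slc6a9: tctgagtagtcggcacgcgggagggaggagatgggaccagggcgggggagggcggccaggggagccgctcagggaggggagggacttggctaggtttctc
Slc7a11 held a pair of matches, one on each strand, from -66 to -59 and from -47 to -40. Slc1a4 held 1 match, on the strand opposite to the gene, from -4 to 4. Of all 32851 promoter windows in the table, 3.97% held at least 1 match and 0.0700% held 2 or more. The letters TGACNNNGC, which stand for the antioxidant response element, were in other windows of Slc6a9, in 1 of Slc7a1 and in that of Slc38a2, and in 12.4% of all windows, and overlapped no CARE match. The E-box letters CACGTG were in 0 of the 9 windows and in 7.15% of all. A match is a description of letters, and its absence says only that these letters are not in the window. The starts used for Slc7a11 and for Slc3a2 lie inside the spans that the files give these genes, so other annotated starts further upstream were not searched.

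The 4 libraries held between 37360968 and 48827826 counted reads, and the members held between 1727 and 20455 reads each per library, far above the floor of 3 counts. The labels name blood stem cells as the cell type, while the extraction text speaks of explants. Levels are given in CPM, read counts scaled to a common library size with TMM factors. Kit was at 47.6 to 63.2 CPM and the blood cell gene Ptprc at 3.39 to 6.85 CPM. The summed level of 11 blood stem and progenitor markers was 214 and 237 CPM in untreated and 180 and 207 CPM in CCCP libraries, against 3178 to 5522 CPM for 8 mesenchymal markers. Hepatic markers were the list that stood furthest apart, with all 9 lower in both CCCP libraries and a summed level of 838 to 1425 CPM in untreated against 6.24 to 67.5 CPM in CCCP libraries. The sum of 7 macrophage markers was 220 and 155 CPM in untreated and 227 CPM in each CCCP library, with 3 of the 7 higher and 0 lower. The part of these cells in the members' values was not tested. In bulk RNA, fewer cells of a type and less RNA per cell cannot be told apart.

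No member passed edgeR's quasi-likelihood test at an adjusted p-value under 0.05 (0 of 9, and 0 of 19837 genes, 0%). The glutamine carrier Slc38a2 was the most abundant of the 9 and was alike in both groups, while the neutral amino acid carrier Slc1a4 and the glycine carrier Slc6a9 had the largest and most even differences, each higher in CCCP. At an unadjusted p under 0.05 those 2 members stood higher and 0 lower, where 5.45% of all genes stood higher and 9.16% lower. DESeq2 called the same 2 at its adjusted p-value, both higher, as it did 2.99% of all genes in either direction and 0.297% higher. Without a filter on low counts edgeR also called these 2, with adjusted p-values of 0.0428 and 0.00994. It then called 3.43% of the genes tested, 217 higher and 890 lower. In 5 of the 9 the groups did not overlap and the CCCP libraries were the higher ones, and in 0 of 9 they were the lower ones. Over all genes the shares were 24.0% and 24.8%. The 9 were chosen with earlier results of these data known, so their comparison with all genes is a description only. The 7 members with a log2 fold change above 0 compare with 49.2% of all genes. The median of the 9 was 0.29 against -0.01 for all genes tested. That median rested on the untreated libraries, at 0.05 without untreated replicate 1 (5 of 9 above 0) and 0.56 without untreated replicate 2 (9 of 9 above 0). With 2 libraries a group, the smallest two-sided p of an exact permutation test is 0.333, so that test is not used for single genes, and p-values measure only the spread between these libraries, which no label says came from separate embryos.

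**Figure D1:**
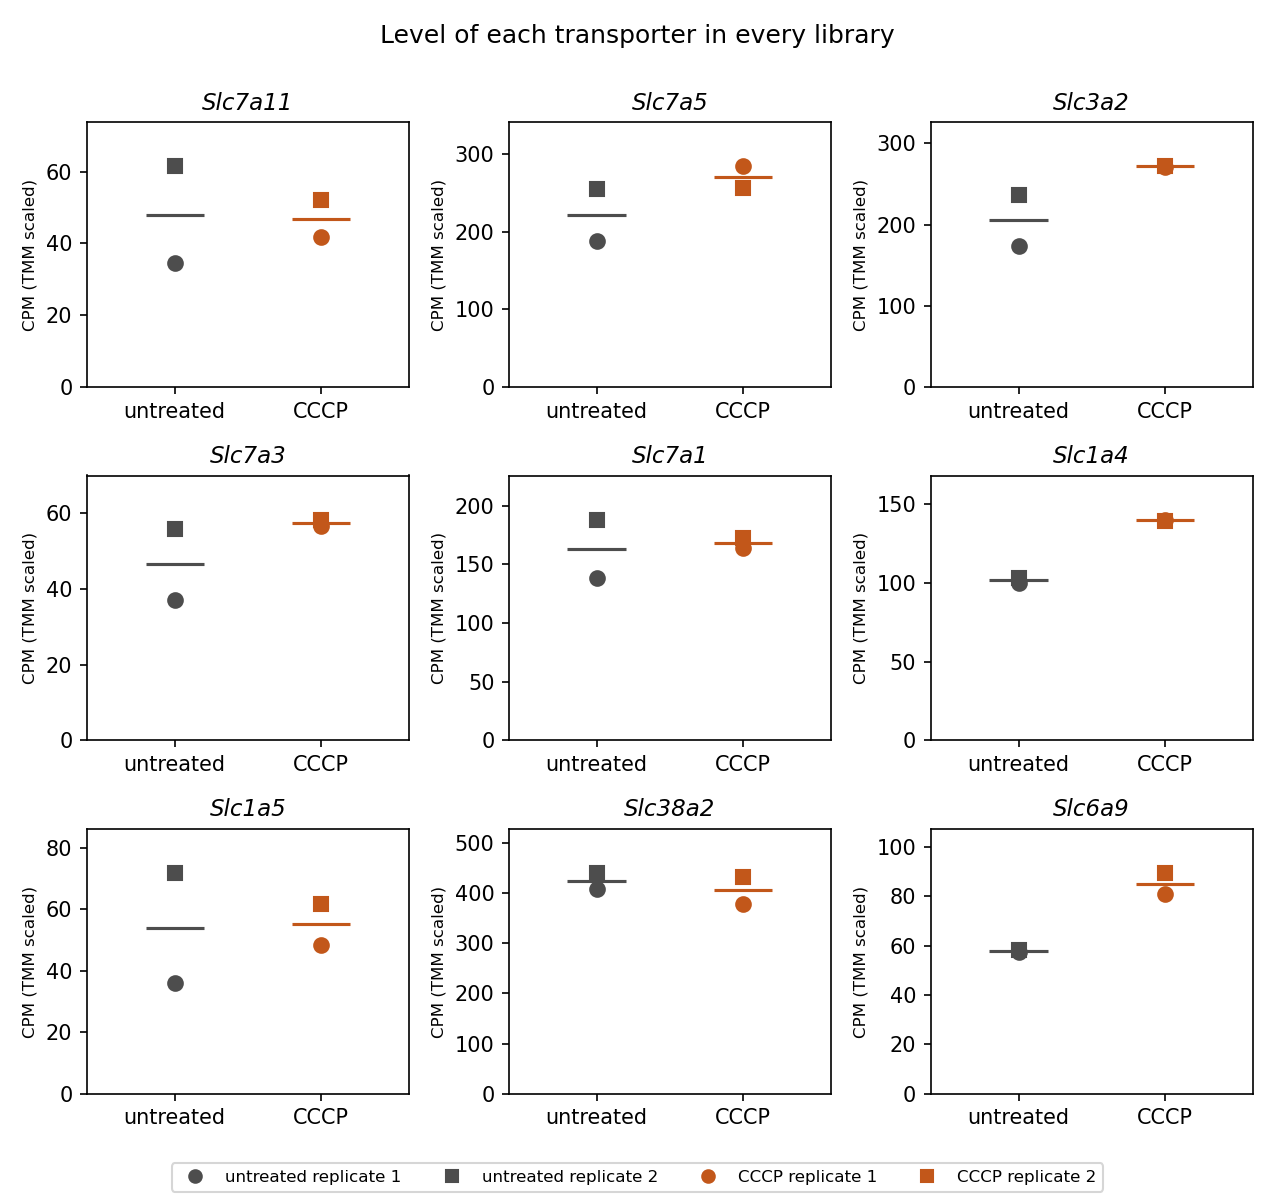
Level of each of the 9 transporters (CPM with TMM scaling, axis from 0) in each library, untreated in grey and CCCP in orange, circles for replicate 1 and squares for replicate 2, with a bar at the group mean. Slc1a4 and Slc6a9 show close replicates and groups that stand apart, while for Slc7a11 and Slc1a5 both CCCP libraries lie between the untreated ones.

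The 2 carriers with the most even difference are described first. Slc1a4, also called ASCT1, exchanges alanine, serine, cysteine and threonine. Its gene lies on chromosome 11 (20302180 to 20332713). Its level was 99.9 and 104 CPM in untreated replicates 1 and 2 and 140.3 and 139.5 CPM in CCCP replicates 1 and 2. Both CCCP libraries were above both untreated libraries, and the replicates nearly coincided in each group. The group means were 102 ± 2.60 and 139.9 ± 0.576 CPM (SD, n = 2 each), a fold of 1.38. On the log2 scale this was 0.46 (standard error 0.11, 95% interval from 0.20 to 0.72). Its adjusted p-value was 0.206 in edgeR and 0.0488 in DESeq2, and ran from 0.0172 to 0.782 over all alternatives tried. Leaving out any 1 library kept the log2 fold change between 0.44 and 0.52.

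Slc6a9, the glycine transporter GlyT1, lies on chromosome 4 (117835258 to 117869305). It is known in glia and in developing red cells, which use glycine to make haem. Untreated replicates 1 and 2 were at 57.6 and 58.1 CPM, and CCCP replicates 1 and 2 at 80.9 and 89.3 CPM. The groups did not overlap, and the untreated libraries were nearly equal. The means were 57.8 ± 0.363 and 85.1 ± 5.93 CPM (SD, n = 2), a fold of 1.47, the largest of the 9. Its log2 fold change was 0.56 (standard error 0.12, interval from 0.28 to 0.84), and 1.50% of all genes tested had a smaller p. Its adjusted p-value was 0.181 in edgeR and 0.0213 in DESeq2, and ran from 0.00739 to 0.773 over all alternatives tried. Leaving out any 1 library kept the log2 fold change between 0.49 and 0.63.

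The summed level of erythroid markers, read beside Slc6a9, overlapped between the groups. Their sum over 8 genes was 1923 and 2141 CPM in the untreated and 2097 and 2904 CPM in the CCCP libraries. Most of it was Hbb-y, at 1403 to 2225 CPM. In both CCCP libraries 2 markers were higher, Hba-a1 (log2 fold change 0.49) and Alas2 (0.60), and 2 lower, Tfrc (-0.54) and Epor (-0.59). These markers are named after their values were seen, and the part of red cells in the level of Slc6a9 was not tested. The sum of 8 neural and neural crest markers was higher in both CCCP libraries, at 859 and 803 against 725 and 699 CPM, with 3 of the 8 higher and 2 lower, and the part of these cells in the result was not tested. Exons of Slc6a9 share 51 bases, 1.36% of its exon length, with Ccdc24, an opposite-strand gene, and the counting took no account of strand.

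The members that form the 4F2 heterodimers come next. Slc3a2 (4F2hc, CD98) is the heavy chain that brings several light chains to the plasma membrane. The light chain Slc7a5 (LAT1) carries large neutral amino acids such as leucine, and the light chain Slc7a11 (xCT) takes up cystine in exchange for glutamate and so feeds glutathione synthesis. The heavy chain and LAT1 messages had a like pattern, lowest in untreated replicate 1 and highest in the CCCP libraries, and the xCT message did not.

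Slc3a2 (chromosome 19, 8706882 to 8723369) was at 174 CPM in untreated replicate 1, 237 CPM in untreated replicate 2, and 271 and 272 CPM under CCCP. The CCCP libraries were nearly equal and above both untreated libraries, which were further from each other than the nearer one was from the CCCP group. Its log2 fold change, 0.40, had a standard error of 0.17 and an interval from -0.01 to 0.82 (edgeR adjusted p 0.347, from 0.0302 to 0.884 over all alternatives tried). Without untreated replicate 1 it was 0.21 and without untreated replicate 2 it was 0.67.

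Slc7a5 (chromosome 8, 121881146 to 121907686) was at 188 and 254 CPM in untreated and at 284 and 256 CPM in CCCP replicates 1 and 2. The groups did not overlap, but untreated replicate 2 and CCCP replicate 2 were nearly equal. On the log2 scale the difference was 0.29 (standard error 0.17, interval from -0.13 to 0.71, edgeR adjusted p 0.477). Leaving out untreated replicate 1 gave 0.10 and leaving out untreated replicate 2 gave 0.56, so the size depends on which untreated library is read. With library totals in place of TMM scaling, the groups of Slc7a5 overlapped, as they did with the trend with exon length removed.

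Slc7a11 (chromosome 3, 50364936 to 50499087), the member with a pair of CARE matches in its promoter window, was at 34.5 CPM in untreated replicate 1, 61.5 CPM in untreated replicate 2, and 41.7 and 52.0 CPM in CCCP replicates 1 and 2. Both CCCP libraries lay between the untreated ones, so the groups overlapped in full. The means were 48.0 ± 19.1 and 46.9 ± 7.26 CPM (SD, n = 2). The difference was -0.03 on the log2 scale, with a standard error of 0.28 and an interval from -0.71 to 0.64 (edgeR adjusted p 0.966). Its direction depended on the libraries and settings used, at -0.38 without untreated replicate 1, 0.47 without untreated replicate 2, 0.12 without CCCP replicate 1 and 0.17 once the trend with exon length was removed. Slc7a11 has the longest exons of the 9, at 9568 bases, and the 1000 genes nearest to it in exon length had a median log2 fold change of -0.26.

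Ratios between partners do not depend on library scaling, though they can move with the trend with exon length. On a scale of CPM per kilobase of exon, Slc7a5 stood at 1.82 and 1.81 times Slc3a2 in untreated and at 1.77 and 1.59 times in CCCP replicates 1 and 2. The ratio of LAT1 to its heavy chain was lower in both CCCP libraries, in replicate 1 by little. Slc7a11 stood at 0.123 and 0.161 of Slc3a2 in untreated and at 0.0953 and 0.118 in CCCP replicates 1 and 2, lower in both CCCP libraries by a narrow margin. With the trend with exon length removed, the log2 fold changes of Slc7a5, Slc7a11 and Slc3a2 were 0.26, 0.17 and 0.50, so both light chains still stood below Slc3a2. Of the summed level of 6 known light chains of Slc3a2 (Slc7a5, Slc7a6, Slc7a7, Slc7a8, Slc7a10 and Slc7a11), Slc7a5 made up between 73.3% and 78.9%, Slc7a6 between 12.1% and 15.5% and Slc7a11 between 4.25% and 6.68%. The exon length joins all annotated exons of a gene, so a gene with unused long exons is placed too low on this scale.

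The cationic amino acid carriers Slc7a1 (CAT1) and Slc7a3 (CAT3) take up arginine, lysine and ornithine without a heavy chain. Slc7a3 (chromosome X, 101079146 to 101090452) was at 37.0 and 55.8 CPM in untreated and at 56.5 and 58.2 CPM in the CCCP libraries. Untreated replicate 1 was the low library, and the other 3 were within a few CPM of each other although the groups did not overlap. Its log2 fold change was 0.31 (standard error 0.20, edgeR adjusted p 0.507), or 0.05 without untreated replicate 1 and 0.66 without untreated replicate 2. Its groups overlapped once the trend with exon length was removed. Slc7a3 shares 77 exon bases, 2.71% of its exon length, with Snx12 on the same strand.

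Slc7a1 (chromosome 5, 148327410 to 148399904) was at 138 and 188 CPM in untreated and at 164 and 173 CPM in CCCP replicates 1 and 2. Both CCCP libraries lay between the untreated ones. On the log2 scale the difference was 0.05 (standard error 0.17, interval from -0.36 to 0.46, edgeR adjusted p 0.918). Leaving out untreated replicate 1 gave -0.15 and leaving out untreated replicate 2 gave 0.32. The ratio of Slc7a1 to Slc7a3 per kilobase was 1.43 and 1.30 in untreated and 1.11 and 1.14 in CCCP replicates 1 and 2, so it was lower in both CCCP libraries while neither gene alone passed a test. Once the trend with exon length was removed the log2 fold changes of Slc7a1 and Slc7a3 were 0.20 and 0.24, closer to each other than before. The part of that trend in the ratio was not tested.

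The glutamine carriers Slc1a5 and Slc38a2 close the list. Slc1a5 (ASCT2; chromosome 7, 16781334 to 16798274), a relative of Slc1a4 that exchanges glutamine, was at 36.2 and 71.8 CPM in the untreated and at 48.5 and 61.8 CPM in the CCCP libraries. The CCCP libraries lay between the untreated ones, which were 0.99 apart on the log2 scale, the widest gap of the 9. Its log2 fold change of 0.03 had a standard error of 0.32 and an interval from -0.74 to 0.80 (edgeR adjusted p 0.974). The value turned to -0.37 without untreated replicate 1, 0.64 without untreated replicate 2 and -0.15 without CCCP replicate 2.

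Slc38a2 (SNAT2; chromosome 15, 96687392 to 96699728), a sodium-coupled carrier of small neutral amino acids that is known to be induced when amino acids are withdrawn, was at 409 and 439 CPM in untreated and at 378 and 432 CPM in CCCP replicates 1 and 2. The groups overlapped, with CCCP replicate 1 the lowest library. On the log2 scale the difference was -0.07 (standard error 0.14, interval from -0.40 to 0.26, edgeR adjusted p 0.847). It was 0.02 without untreated replicate 2 and 0.03 without CCCP replicate 1.

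**Figure D2:**
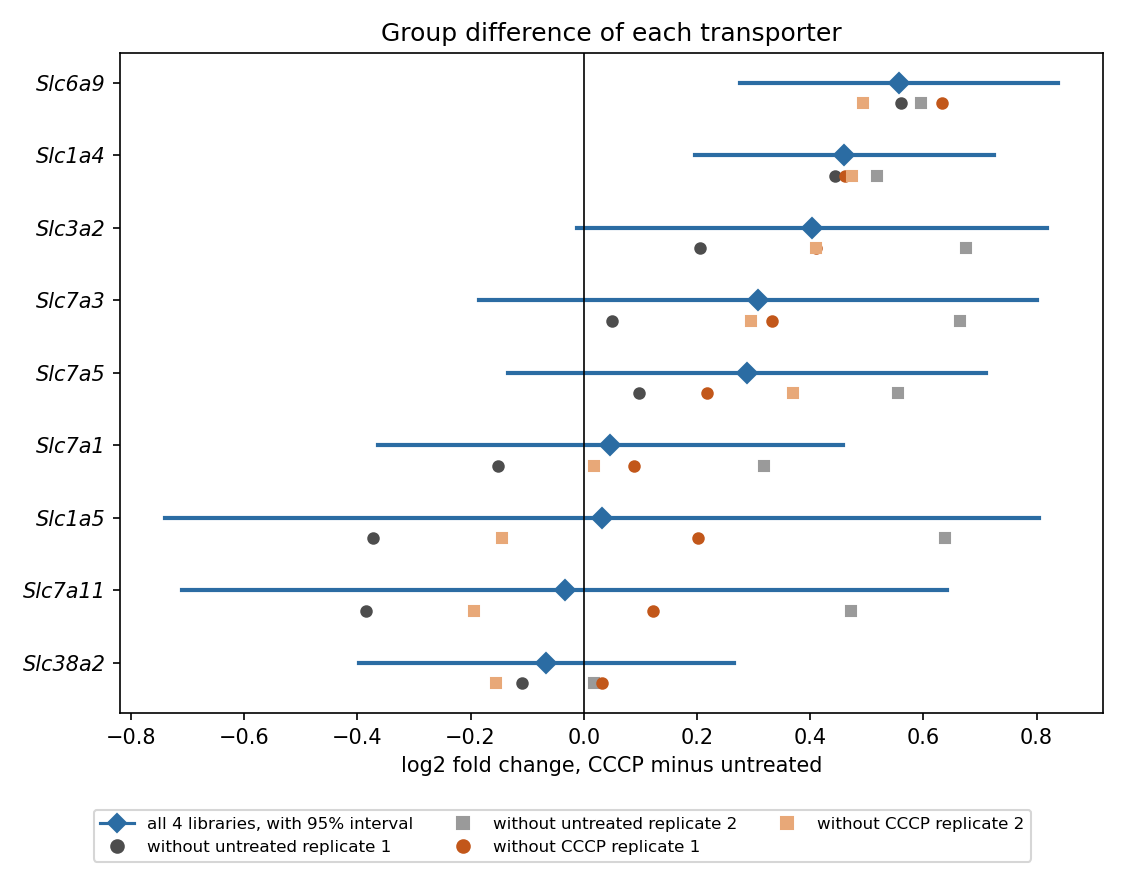
Log2 fold change (CCCP minus untreated) of each transporter from all 4 libraries (blue diamond, bar for the 95% interval) and with 1 library left out (small marks below). The interval of Slc6a9 and that of Slc1a4 lie above 0 before adjustment. Leaving out an untreated library moves Slc7a11, Slc7a1, Slc1a5 and, by less, Slc38a2 to either side of 0.

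The order of the length-scaled levels was the same at its ends in all libraries. Slc38a2 was highest, with a mean over the 4 libraries of 89.0 CPM per kilobase, followed by Slc7a5 at 70.0 and Slc3a2 at 40.3. Slc1a4 followed at 30.8 and Slc7a1 at 22.4. Slc6a9, Slc1a5 and Slc7a3 came next, at 19.0, 18.6 and 18.3, and these 3 did not differ from one another, nor Slc6a9 from Slc7a1, beyond their spread. Slc7a11 was lowest, at 4.96, and its highest library (6.43) was below the lowest library of every other member. The ranges of Slc38a2, Slc7a5 and Slc3a2 did not overlap with one another. Those of Slc3a2 and Slc1a4, and of Slc1a4 and Slc7a1, overlapped although each of the 4 libraries kept that order. In CCCP libraries Slc6a9 ranked sixth by its group mean, against eighth in untreated libraries.

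**Figure D3:**
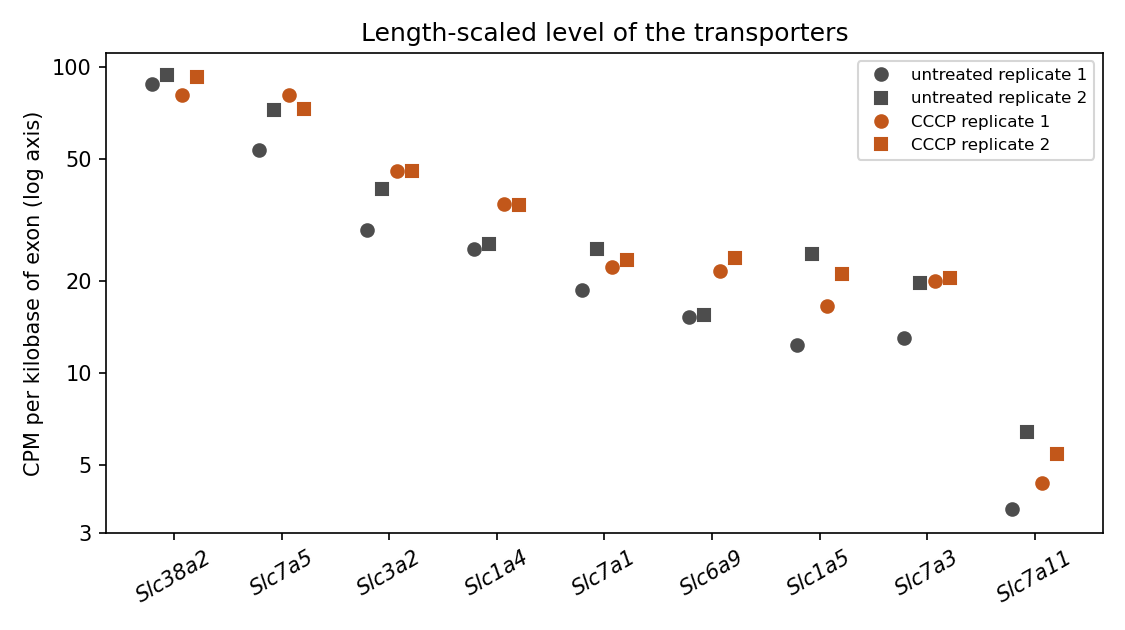
Length-scaled level (CPM per kilobase of exon, log axis) of the 9 transporters in the 4 libraries, ordered by mean level. Slc38a2 and Slc7a5 lie at the top and Slc7a11 stands apart at the bottom, between 3.61 and 6.43.

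The members shared a low library. Untreated replicate 1 was the lowest library for 8 of the 9 members, against 31.7% of all genes tested, and Slc38a2 was the exception. Untreated replicate 2 was the highest library for Slc7a11, Slc7a1, Slc1a5 and Slc38a2, and for 21.5% of all genes tested. For 7 of the 9 members a gap between replicates of 1 group was larger than the difference between the group means, as it was for 63.9% of all genes. The exceptions were Slc1a4 and Slc6a9. The order of the libraries fixes what leaving out an untreated library gives, so that step adds no separate result. Without untreated replicate 1, Slc7a11, Slc7a1, Slc1a5 and Slc38a2 lay below the lone untreated library, and the other members lay above it. Without untreated replicate 2, every member but Slc38a2 lay above the lone untreated library. With 1 library in a group, groups stand apart more readily than with 2. The 24.0% and 24.8% of all genes given above hold for 2 libraries a group, and no share is given here with 1 left out.

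By the distance between centred log2 CPM profiles over the 4 libraries, the closest pairs among the members were Slc3a2 with Slc7a3 (0.14), Slc7a11 with Slc1a5 (0.14) and Slc1a4 with Slc6a9 (0.15). These pairs differ in kind, the first low in untreated replicate 1 alone, the second also high in untreated replicate 2, and the third split by group. Among 12356 other genes with a mean of at least 5 CPM, the nearest to Slc7a11 were the kinetochore gene Cenph, the transcription factor gene Mycn, and Stxbp6, at distances of 0.06, 0.06 and 0.07. The nearest to Slc3a2 were Gsg1l, the iron-sulfur cluster scaffold gene Iscu, and Gtf2h4, which encodes a TFIIH subunit, at 0.02, 0.02 and 0.03. With only 4 libraries many genes come close to any profile, and 211 genes lay nearer to Slc3a2 than its nearest fellow member did.

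**Figure D4:**
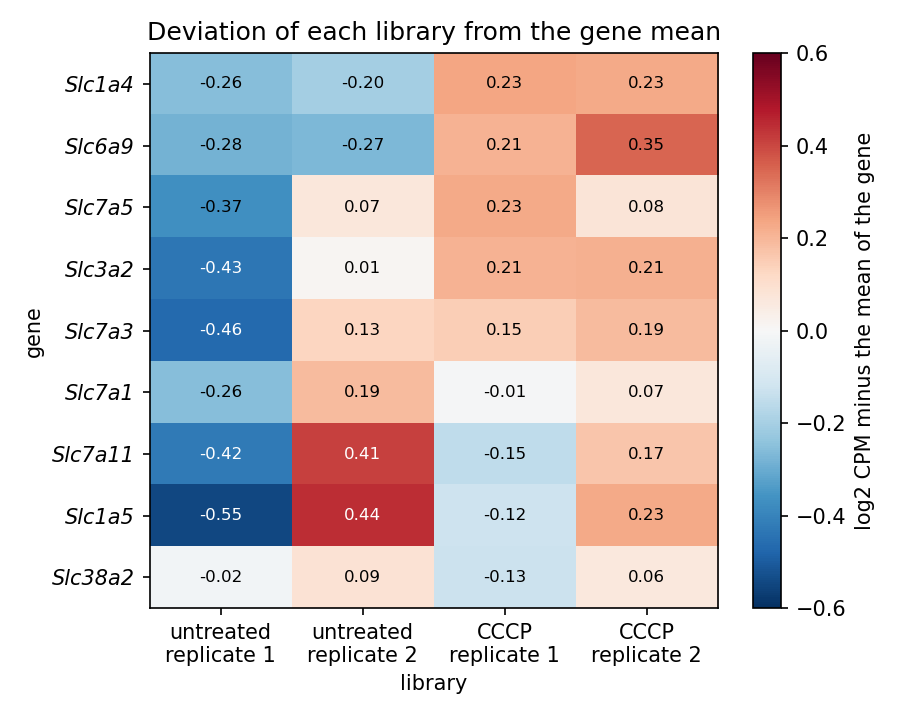
Log2 CPM of each transporter in each library minus the mean of that gene over the 4 libraries. The column of untreated replicate 1 is negative for all 9 genes, from -0.55 for Slc1a5 to -0.02 for Slc38a2, and only the rows of Slc1a4 and Slc6a9 have both untreated libraries low and both CCCP libraries high.

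The other amino acid transporters of the same and related families had no common direction. Of 48 listed genes 35 were tested and 0 passed in edgeR. At an unadjusted p under 0.05 there were 4 higher and 6 lower (5.45% and 9.16% of all genes). The CCCP libraries were both above the untreated ones for 7 and both below for 8 (24.0% and 24.8% of all genes). The median log2 fold change was -0.02. Without untreated replicate 1 it was 0.07, above the 0.05 of the 9 members, and without untreated replicate 2 it was -0.13, below their 0.56. With the trend with exon length removed it was 0.04, with 21 of the 35 above 0, against 0.24 for the members. Log2 fold change fell with exon length across all genes tested (Spearman rho -0.35). The median exon length was 5741 bases for these transporters and 3926 for the members. DESeq2 called 1 of them, Slc36a2, a carrier of small amino acids on few reads (4 and 12 counts in the CCCP and 101 and 36 in the untreated libraries), named here after its values were seen. Whether these transporters and the 9 members differ as lists was not tested.

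Among the Slc7 relatives, Slc7a2 (CAT2), the cationic carrier known in liver, was at 55.4 and 48.1 CPM in untreated and 32.3 and 36.7 CPM in CCCP libraries, a log2 fold change of -0.59 (edgeR adjusted p 0.206). It stood lower while its relatives Slc7a1 and Slc7a3 did not, beside the hepatic markers given above, whose part was not tested. Slc7a14 stood at -0.64 and Slc7a7 at 0.08. In the Slc1 family the glial glutamate carriers Slc1a2 and Slc1a3 stood at -0.72 and -0.13. In the Slc38 family Slc38a6 stood at -0.70, Slc38a3, known in liver, at -0.64 and Slc38a10 at 0.36. Slc6a5, the neuronal glycine transporter GlyT2, stood at -0.75, opposite in sign to Slc6a9, but its groups overlapped. In the Slc6 family Slc6a17 stood at 0.17 and the taurine carrier Slc6a6 at 0.05. Higher in both CCCP libraries were Slc43a1 (0.49), a carrier of large neutral amino acids, the lysosomal cystine exporter Ctns (0.38) and the lysosomal histidine carrier Slc15a4 (0.37). The edgeR adjusted p-values of these genes lay between 0.206 and 0.890. Of the lower ones, Slc1a2, Slc38a6, Slc7a2, Slc7a14 and Slc6a5 have long exons, at 13288, 11306, 9109, 9093 and 8630 bases. Slc38a3, also lower, has 4988, and the part of the length trend in these values was not tested. Exons of Slc43a1, Slc7a7 and Slc38a10 share 20.9%, 6.87% and 6.02% of their length with genes on the other strand, and the partner of Slc7a7, Oxa1l, held 2736 to 4447 reads per library.

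Factors, kinases and feedback genes of the integrated stress response were counted next. The list joins genes that act upstream of the members, such as Atf4, with feedback genes such as Trib3. Of 16 tested genes 0 passed in edgeR and 1, Ddit3, in DESeq2. At an unadjusted p under 0.05 there were 4 higher and 1 lower (5.45% and 9.16% of all genes). In both CCCP libraries 8 lay above and 2 below (24.0% and 24.8% of all genes). The median was 0.18, or 0.10 with the trend with exon length removed and 0.28 without untreated replicate 2. Atf4 itself was at 237 and 292 CPM in untreated and 327 and 326 CPM in CCCP libraries, a log2 fold change of 0.31 (edgeR adjusted p 0.383). Its libraries were ordered much as those of Slc3a2 were, with untreated replicate 1 the lowest and the CCCP libraries equal. Trib3, a feedback inhibitor of Atf4, stood at 0.70 and Ddit3 (CHOP), a partner of Atf4, at 0.59, with edgeR adjusted p-values of 0.249 and 0.166. Eif2ak2 (PKR), a kinase that senses double-stranded RNA, stood at -0.54 (adjusted p 0.272), with 30.8% of its exon length shared with Gm6548.

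Genes that Atf4 is known to drive outside transport were also mostly lowest in untreated replicate 1. Of 18 tested, 0 passed in edgeR or DESeq2, and the median was 0.25, or 0.18 with the trend with exon length removed. At an unadjusted p under 0.05, 1 stood higher and 1 lower (5.45% and 9.16% of all genes). Only 2 lay above in both CCCP libraries, Aldh18a1 (0.25) and Pycr1, and 3 lay below, Vldlr (-0.41), Ddit4 (-0.25) and Cbs (-0.84), against 24.0% and 24.8% of all genes. Those 5 are named for that count, chosen after their values were seen except for Pycr1. That library was the lowest for 13 of the 18, against the 31.7% of all genes given above. Without that library the median was -0.06, and without untreated replicate 2 it was 0.74. Asns, the asparagine synthetase, was at 129.8 and 214 CPM in untreated and 205 and 235 CPM in CCCP libraries, with groups that overlapped and a log2 fold change of 0.35 (edgeR adjusted p 0.519). Pycr1, of proline synthesis, stood at 0.50, Phgdh, the first enzyme of serine synthesis, at 0.44 and Chac1, which degrades glutathione, at 0.44.

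A list of genes for glutathione and oxidative stress had a median of 0.26 over 13 tested genes, or 0.15 with the trend with exon length removed. It joins genes that make or use glutathione, for which Slc7a11 supplies cystine, with Nfe2l2 (Nrf2), its inhibitor Keap1, the haem-degrading Hmox1, the quinone reductase Nqo1 and the thioredoxin reductase Txnrd1. In edgeR and in DESeq2 0 passed. There were 2 higher and 0 lower at an unadjusted p under 0.05 (5.45% and 9.16% of all genes). In both CCCP libraries 7 lay above and 1 below (24.0% and 24.8% of all genes). Srxn1, a sulfiredoxin, stood at 0.47 and the glutathione peroxidase Gpx4 at 0.41 (edgeR adjusted p 0.296 and 0.542). Genes by which the kinase mTORC1 senses amino acids had a median of 0.16 over 21 tested, again with 0 passing in either tool. This median was 0.11 with library totals, 0.24 without untreated replicate 2 and 0.14 with the trend with exon length removed. At an unadjusted p under 0.05 there were 3 higher and 1 lower (5.45% and 9.16% of all genes). In both CCCP libraries 11 lay above and 1 below (24.0% and 24.8% of all genes). Lamtor4 and Lamtor1, of the lysosomal scaffold, stood at 0.56 and 0.42, and Bmt2 (SAMTOR), a sensor of S-adenosylmethionine, at -0.46.

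**Figure D5:**
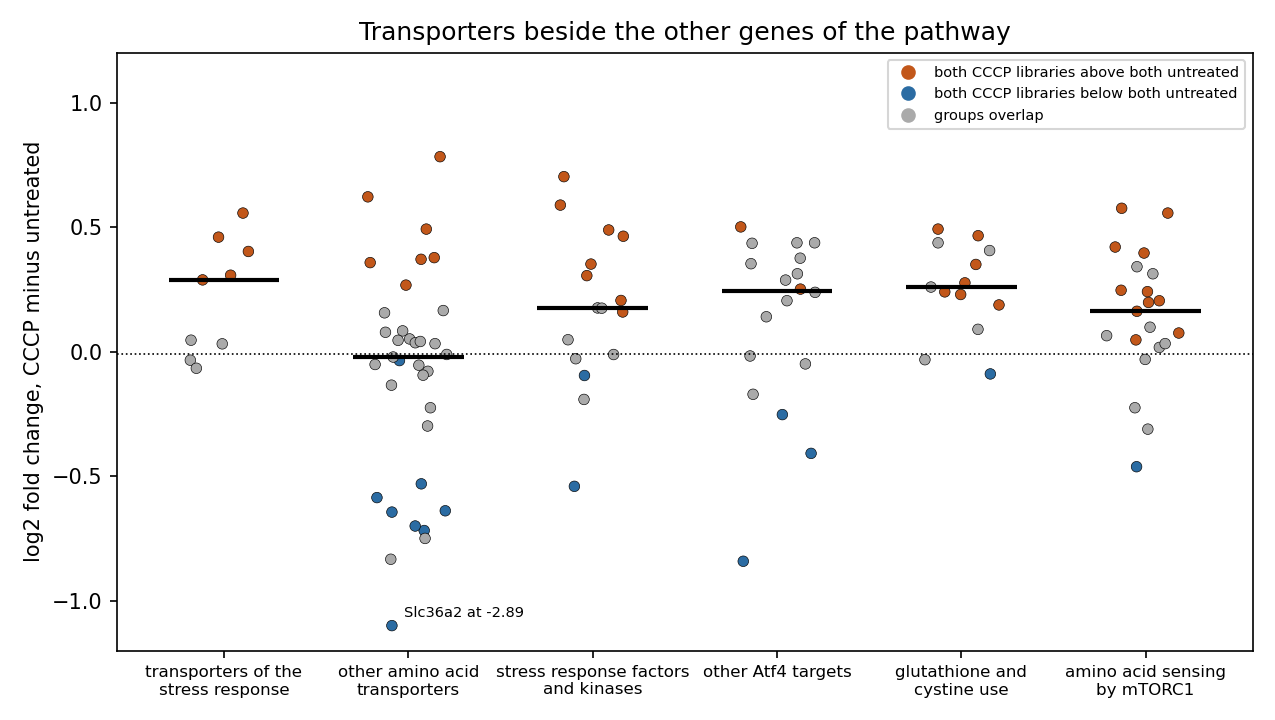
Log2 fold change (CCCP minus untreated) of each tested gene in the 9 transporters and in 5 further lists, orange where both CCCP libraries lie above both untreated ones, blue where they lie below and grey where the groups overlap, with a bar at each median and a dotted line at the median of all genes (-0.01). The transporters have a median of 0.29 with 5 orange and 0 blue points, and the other transporters one of -0.02. Without untreated replicate 1 these medians were 0.05 and 0.07. With the trend with exon length removed they were 0.24 and 0.04. Slc36a2, at -2.89, is drawn at the lower edge.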

How the data were processed

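The files, deposited by the authors, hold raw read counts per gene for 4 libraries. Per the file headers they were made with featureCounts 2.0.3 over exons of the mm10 RefSeq annotation, with no strand option, although the labels' protocols describe a directional kit, and no option to count pairs as fragments. HISAT2 is listed in the submitters' processing notes. No option for reads that touch several genes or map to several places was set, and the tool leaves such reads out unless one is. The members and lists were chosen with earlier results of these data known. Groups came from sample titles. The main test was edgeR 4.0.16 (glmQLFit, glmQLFTest; R 4.3.3) with TMM scaling, filterByExpr (minimum count 10, total 15) and group alone, two-sided, Benjamini-Hochberg over 19837 genes, threshold 0.05. The script was tested on simulated data. Standard errors are the log2 fold change over the square root of F. Intervals are unadjusted. Centred profiles used log2 CPM with prior count 2. Alternatives were RLE scaling, library totals, no filter, DESeq2 1.42.0, each library left out, the replicate block and removal of each library's trend with exon length (loess, span 0.5). Beyond the 9 members, genes named were Atf4, Asns and Ddit3, up to 3 largest absolute log2 fold changes in each list (mean of at least 5 CPM) and the 3 genes nearest in profile to Slc7a11 and Slc3a2. Sequences are RefSeq's, matched by symbol.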

Additional observations from a re-analysis of the deposited data

How the results depend on the processing

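In edgeR 0 genes passed at an adjusted p of 0.05 with TMM scaling, RLE factors, library totals or the length trend removed. Without a filter 1107 passed, in DESeq2 594, with 1 library left out 10 (without untreated replicate 1) to 46 (without untreated replicate 2), with the replicate block 2118, and with that block and no length trend 1210; the cause was not tested. Same-numbered libraries deviated together (r = 0.36 across 19837 genes), but the labels tie the numbers to no litter or day, and there are only 2 pairs. Depth went with the number too, at 48216849 (untreated) and 48827826 (CCCP) counted reads in replicate 1 and 37360968 and 37579087 in replicate 2. With the replicate block 3 of the 9 members passed, Slc3a2, Slc1a4 and Slc6a9, all higher. Of all genes 10.7% passed, 3.80% higher and 6.88% lower. With that block and no length trend the same 3 passed, beside 6.10% of all genes (489 genes higher and 721 lower). No filter or DESeq2 gave Slc1a4 and Slc6a9. Slc7a5, Slc3a2, Slc7a3, Slc1a4 and Slc6a9 kept a positive log2 fold change in all 11 alternatives. Slc7a11 ran from -0.38 to 0.47 with 1 library left out, and was 0.17 with the length trend removed, 0.015 with the replicate block and 0.25 with both. Slc7a1 was -0.0080 with library totals (median of all genes then -0.07) and -0.15 to 0.32 with 1 library left out. Slc1a5 was -0.020 with library totals, -0.030 with the length trend removed and -0.37 to 0.64 with 1 library left out, and Slc38a2 was -0.16 to 0.032 with 1 left out. Of the 9 members, 5 to 8 had every CCCP library kept above every untreated one kept when 1 library was left out. With the length trend removed 3 did (Slc3a2, Slc1a4 and Slc6a9). The number below was 0 to 4 with 1 library left out and 1, Slc38a2, with library totals. No share of all genes is given beside these counts, so they are not read as a result about the members. The members held at least 1727 reads per library, and depth was not varied. A group left with 1 library was assumed to vary like the other group.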
